A study of Mus musculus with 12 samples.

Results

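Cells that lacked the stem cell surface sugar SSEA-1 on day 12 of reprogramming (D12S-) were compared with cells that had lost the fibroblast surface protein Thy-1 by day 9 (D9T-), to ask what differs in cells that do not gain SSEA-1. The comparison took every gene with a level of at least 1 FPKM (mapped fragments, scaled to transcript length and library size) in either library, which kept 12116 of the 24098 genes in the expression table. Differences are D12S- minus D9T- in log2(FPKM + 1), so that a value of 1 is a 2-fold higher level, and the added 1 understates the change of genes with low FPKM. Both libraries are mRNA from mouse embryonic fibroblasts (MEFs, from mice with GFP at the Oct4 gene) infected with pMXs retroviruses carrying Oct4, Sox2, Klf4 and c-Myc (OSKM). For the infected cells the labels give culture without feeder cells or passage in a serum replacement medium with LIF, ascorbic acid, bFGF, N-2 and CHIR99021, an inhibitor of the kinase GSK3. The study's methods name further media for reprogramming. The series holds 12 libraries, 1 per condition. The others are uninfected MEFs (D0), unsorted day 3 cells (D3), Thy-1+ and Thy-1- cells of day 6 (D6T+, D6T-), Thy-1+ cells of day 9 (D9T+), SSEA-1+ cells of day 12 (D12S+), sorted cells of day 16 (D16S+, D16S-), iPSCs and the mouse embryonic stem cell line ESD3 (mESCs).

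Thy-1 is a surface protein of fibroblasts that is lost early in cells that respond to the factors. SSEA-1 is a carbohydrate, made by glycosyltransferases, that appears on the cells that go on towards pluripotency, and many infected cells never gain it. During reprogramming, fibroblast matrix and contractile genes are switched off, epithelial genes are switched on, metabolism moves towards glycolysis, and the endogenous pluripotency network is activated last.

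The libraries differ in both the sorted marker and the day, and these cannot be told apart. The labels give SSEA-1 as the only sorting marker of D12S-, so that it may hold Thy-1+ cells. With 1 library per condition there was no test, and the values carry no replicate error. The confidence interval that accompanies each FPKM reached, at the median gene, 100.3% of the value to either side in D9T- and 100.4% in D12S-. The relative depth of D12S-, read from the steps between low FPKM values, was 0.985 of that of D9T-, although only 347 of 3016 genes gave this step, and the absolute depth is unknown.

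The bulk of the transcriptome was at like levels in both libraries. The median difference was 0.01, the quartiles were -0.24 and 0.30, and 81.3% of genes lay within 1.5-fold. At least 2-fold higher in D12S- were 514 genes (4.24% of the genes kept), and at least 2-fold lower were 148 (1.22%). At 4-fold these numbers were 46 and 14. Of the 514 higher genes 79 lay below 1 FPKM in D9T-, and of the 148 lower genes 29 lay below 1 FPKM in D12S-. The intervals of D9T- and D12S- overlapped for every one of these 662 genes. Intervals as wide as those of the median gene overlap at almost any difference, so the overlap does not single out any gene. None of the 662 can be called changed from these libraries alone.

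**Figure D1:**
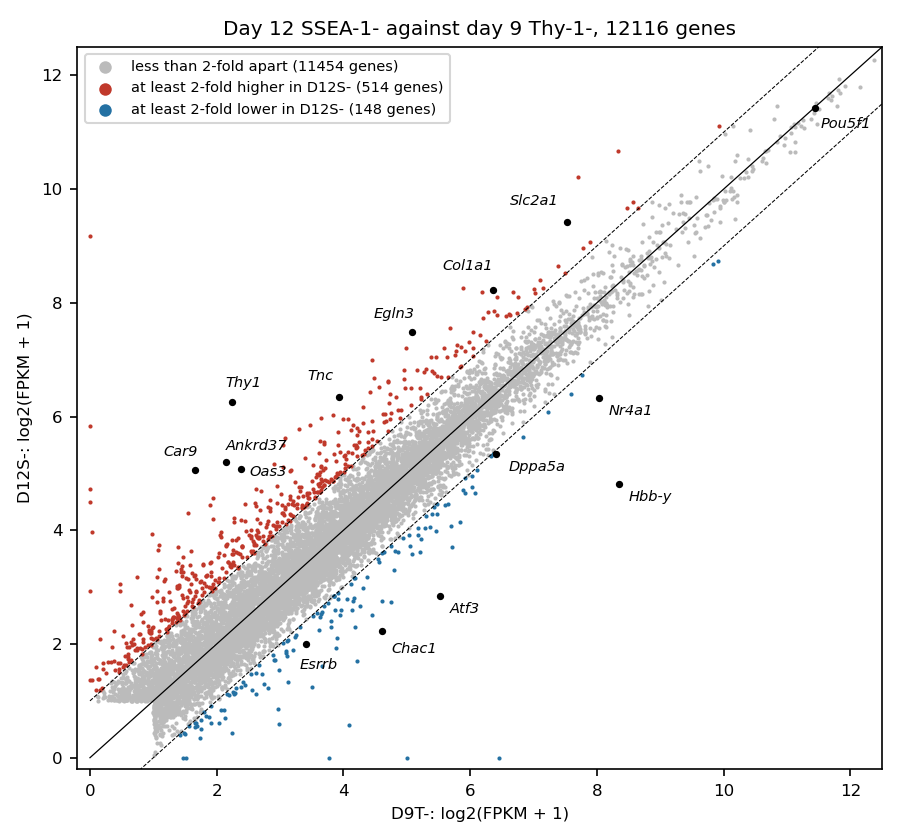
Levels of the 12116 genes kept, in D9T- (x axis) and D12S- (y axis), both as log2(FPKM + 1) with 1 library each. The solid line marks equal levels and the dashed lines 2-fold differences, and 514 genes lie on or above the upper dashed line against 148 on or below the lower.

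The label of D9T- could be checked on Thy1 (mm9 chr9:43851467-43856662, plus strand), the gene of the protein it was sorted on. Thy1 stood at 669 FPKM in D0, 477 in D6T+ and 491 in D9T+, and at 3.24 in D6T- and 3.72 in D9T-. D12S- held 75.7 FPKM, D12S+ 28.7, D16S- 44.8 and D16S+ 3.73. Its level in D12S- was therefore between those of the Thy-1- and Thy-1+ cells, and its difference of 4.02 was the highest of any named gene. As D9T- was selected for the absence of Thy-1, this difference describes the sort and is not a finding.

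Markers of the cell types that the sorts could hold are given as sums. The 7 fibroblast markers summed to 357 FPKM in D9T- and 667 in D12S-, against 7265 in D0 and 2180 in D9T+. Of them 6 and 7 reached 1 FPKM. The 7 include Thy1, whose difference describes the sort. Among the others, Col1a1 was higher in D12S- (81.1 FPKM in D9T- and 298 in D12S-) and Col3a1 lower (164 and 101). The 6 epithelial markers, all present in both libraries, summed to 269 and 403 FPKM, against 752 in D12S+. The keratins Krt8 (92.5 FPKM in D9T- and 159 in D12S-) and Krt18 were higher in D12S-. Epcam was nearly level (55.2 and 56.8), and Cdh1 (25.8 and 17.8) and Cldn4 (49.3 and 33.7) were lower. The 5 pluripotency markers summed to 123 and 68.0 FPKM against 1801 in D12S+, with 5 and 4 of them at 1 FPKM or more. Of 5 leukocyte markers only Laptm5 reached 1 FPKM in either library (33.2 and 45.6), while Tyrobp was listed at 0 in both, and Cd53 and Spi1 were listed at 0 in D12S-. The 4 endothelial markers summed to 2.20 and 5.05 FPKM, and the 3 keratinocyte markers to 20.2 in each, nearly all of it Krt14. In these bulk samples fewer cells of a type and less RNA per cell cannot be told apart, and the part of such cells in the differences below was not tested.

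The 4 reprogramming factors did not differ by 2-fold. Pou5f1 (Oct4) stood at 2769 FPKM in D9T- and 2737 in D12S-, Sox2 at 258 and 368, Klf4 at 658 and 762, and Myc at 605 and 627. Reads of the retroviral copies count towards these values, so both populations held factor RNA at levels of the same order. The enzymes of SSEA-1 synthesis gave a median difference of 0.06 over the 6 of 9 that were kept, none of them past 2-fold. B3gnt7, which extends the sugar chain that carries the epitope, stood at 13.0 FPKM in D9T-, 11.6 in D12S- and 47.5 in D12S+. The fucosyltransferase Fut9 was at 0.046 FPKM in D9T-, 0.0216 in D12S- and 0.249 in D12S+, and Fut4 was at 0.191, 0.644 and 0.514.

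Genes of the fibroblast matrix were higher in D12S- as a group. Of 25 kept members 13 were at least 2-fold higher in D12S- and none lower, 23 were higher by any amount, and the median difference was 1.08 against 0.01 over all genes kept. Tnc (tenascin C, an adhesion-modulating glycoprotein) went from 14.3 FPKM in D9T- to 79.8 in D12S-, a difference of 2.40. Loxl2, an enzyme that cross-links collagen, was at 7.29 and 33.4 FPKM (2.05), and the proteoglycan gene Bgn at 20.4 and 84.8 (2.00). Col1a1, the main chain of type I collagen, was at 81.1 and 298 FPKM (1.87). The members did not all move this way: Col3a1, of type III collagen, was at 164 FPKM in D9T- and 101 in D12S- (-0.69), and the fibronectin gene Fn1 at 396 and 358 (-0.15).

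The higher matrix genes stayed far below the starting fibroblasts. Col1a1 stood at 3453 FPKM in D0 and 752 in D9T+, and Bgn at 2983 and 336. In D12S+ the same genes were at 113 and 34.3 FPKM, and in D16S- at 208 and 62.1. For the whole list the median difference from D9T- was -0.06 in D12S+, a library that shares the D9T- reference with the 1.08 of D12S-. Among 17 kept basement membrane genes, 2 were at least 2-fold higher in D12S-, among them the nidogen gene Nid1 at 43.6 and 105 FPKM, and the list median was 0.65.

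Mesenchymal, contractile and protease genes differed in the same direction in part. Of 18 kept mesenchymal regulators and surface genes 5 were at least 2-fold higher, with a median of 0.62. Beside Thy1 itself they were Twist2, a repressor made in mesenchyme (11.4 FPKM in D9T- and 46.5 in D12S-), Snai1, a repressor of E-cadherin (4.70 and 14.1), the calcium-binding S100a4 (237 and 540) and the homeobox gene Prrx1 (12.7 and 27.8). The difference of Thy1 describes the sort, and Thy1 counts towards the list median. D12S+ gave a median of -0.50 for this list. Of 18 contractile genes 4 were at least 2-fold higher (median 0.54), among them Tagln, an actin-binding protein of smooth muscle, at 11.9 and 45.7 FPKM. Of 17 matrix metalloproteinases, plasminogen activators and inhibitors 6 were higher and 1 lower (median 0.90): Timp1, an inhibitor of these proteases, was at 218 and 500 FPKM, and Adamts1, which cleaves proteoglycans, at 31.8 and 14.2 (-1.11).

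Secreted growth regulators were among the higher genes. Of 12 kept genes of the insulin-like growth factor (IGF) axis 6 were at least 2-fold higher (median 0.72). The IGF-binding proteins gave most of these, with Igfbp4 at 30.7 FPKM in D9T- and 147 in D12S- (2.22), Igfbp3 at 101 and 292, and Igfbp2 at 128 and 301. Igfbp2 was higher still in D12S+, at 799 FPKM. Of 25 TGF-beta and BMP genes 5 were higher (median 0.42, and 0.20 without the filter on low values). Among the 5, Ltbp2 reached 1 FPKM only in D12S-, so that its direction follows from the filter. The ligand gene Tgfb1 was at 3.08 and 10.5 FPKM, and Inhba, a subunit of activin, at 6.18 and 14.7.

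Genes of the hypoxia response and glycolysis formed a group in which every kept member was higher in D12S-. All 28 were above their D9T- level, 13 of them at least 2-fold, and the median was 0.94. These genes are targets of hypoxia-inducible factors (HIF), which bind a core sequence ACGTG. The promoters of 3 members are shown because they carry this core and the genes had some of the largest differences. They span 250 bases before to 50 after the RefSeq start (GRCm38.p6), written 5′ to 3′ on the strand of the gene, with ACGTG on either strand in capitals. Car9 lies at chr4:43506776-43507075 (plus strand), Ankrd37 at chr8:45999801-46000100 (minus strand) and Egln3 at chr12:54203825-54204124 (minus strand).
Car9: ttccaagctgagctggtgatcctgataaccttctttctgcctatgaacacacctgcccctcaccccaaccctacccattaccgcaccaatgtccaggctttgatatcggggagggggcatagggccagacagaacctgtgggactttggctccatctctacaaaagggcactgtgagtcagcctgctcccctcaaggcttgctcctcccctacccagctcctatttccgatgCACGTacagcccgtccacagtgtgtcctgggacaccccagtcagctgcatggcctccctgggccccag
Ankrd37: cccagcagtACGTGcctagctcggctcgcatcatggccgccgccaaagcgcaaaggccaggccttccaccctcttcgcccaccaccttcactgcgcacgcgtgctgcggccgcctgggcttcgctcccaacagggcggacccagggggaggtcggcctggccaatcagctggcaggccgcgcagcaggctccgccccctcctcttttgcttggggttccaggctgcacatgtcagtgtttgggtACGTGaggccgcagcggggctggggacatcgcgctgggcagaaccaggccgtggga
Egln3: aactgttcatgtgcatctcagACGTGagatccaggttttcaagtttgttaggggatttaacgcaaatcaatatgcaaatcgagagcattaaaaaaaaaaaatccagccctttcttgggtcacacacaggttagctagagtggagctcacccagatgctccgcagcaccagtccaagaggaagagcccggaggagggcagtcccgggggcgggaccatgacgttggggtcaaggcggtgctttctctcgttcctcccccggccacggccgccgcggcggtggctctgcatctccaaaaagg

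The core began 18 bases before the start of Car9, 241 and 6 bases before that of Ankrd37, and 229 bases before that of Egln3. It was held by a promoter of 18 of the 27 list genes that could be matched (66.7%) and of 29.6% of the genes kept that could be matched. Of all 32851 promoters 19.6% held it. A gene counts if any of its promoters holds the match, whereas the last share counts single promoters, here and below. Among the genes at least 2-fold higher in D12S- the share was 26.6% (96 of 361), below that of the genes kept. A match is a description of these letters and not a measured binding site.

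Car9, a carbonic anhydrase (mm9 chr4:43519898-43526597), was at 2.17 FPKM in D9T- and 32.3 in D12S-, a difference of 3.40. Ankrd37, an ankyrin repeat gene, was at 3.44 and 35.7 FPKM (3.05), and Egln3, a prolyl hydroxylase that marks HIF for degradation, at 32.7 and 178 (2.41). Each was also high in D12S+, with 14.3, 48.4 and 138 FPKM, and low in D9T+, with 2.18, 2.46 and 20.5. These genes were thus lower in both day 9 libraries, sorted on Thy-1, than in both day 12 libraries, sorted on SSEA-1. Adm, a vasodilator peptide, was at 11.5 FPKM in D9T- and 62.0 in D12S- (2.33), and the growth factor gene Vegfa at 34.6 and 112 (1.66). Slc2a1 (GLUT1), which brings glucose into the cell, was at 183 and 685 FPKM (1.90), and Slc16a3, which exports lactate, at 50.6 and 188 (1.87).

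The core enzymes of glycolysis named here, chosen after their values were seen, differed less than the genes above. Of the 28 list genes 7 have near-identical copies in the genome, which makes their levels uncertain. Without these 7 the list median was 1.29. Pfkl, the liver form of phosphofructokinase, was at 65.3 and 146 FPKM (1.15) and passed 2-fold, whereas Aldoa was at 1133 and 2201 (0.96), Ldha at 858 and 1352 (0.66) and Pgk1 at 96.9 and 155 (0.67). In D12S+ the list gave a median of 1.04 from the same D9T- library. Cox4i2, a subunit of cytochrome oxidase made in hypoxia, was outside the list and stood at 0.961 FPKM in D9T-, 14.3 in D12S- and 6.87 in D12S+. Genes of oxidative phosphorylation lay slightly lower, 25 of 28 by some amount and none by 2-fold, with a median of -0.16.

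Interferon-stimulated genes, which restrict viruses and are induced through STAT and IRF factors, were higher as a group. Of 27 kept members 12 were at least 2-fold higher in D12S- and none lower, 26 were higher by any amount, and the median was 0.87 against 0.01 over all genes. Their promoters often carry the interferon-stimulated response element, GAAA and GAAA with 2 bases of any kind between, so those of 2 members are shown over the same window, with matches on either strand in capitals. Isg15 lies at chr4:156200769-156201068 and Oas3 at chr5:120777610-120777909 (GRCm38.p6, minus strand for both).
Isg15: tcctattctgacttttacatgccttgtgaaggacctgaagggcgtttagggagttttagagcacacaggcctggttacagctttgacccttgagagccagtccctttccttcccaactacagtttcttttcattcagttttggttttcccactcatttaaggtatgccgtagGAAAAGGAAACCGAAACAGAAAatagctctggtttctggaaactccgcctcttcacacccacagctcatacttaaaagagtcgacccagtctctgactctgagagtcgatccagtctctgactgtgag
Oas3: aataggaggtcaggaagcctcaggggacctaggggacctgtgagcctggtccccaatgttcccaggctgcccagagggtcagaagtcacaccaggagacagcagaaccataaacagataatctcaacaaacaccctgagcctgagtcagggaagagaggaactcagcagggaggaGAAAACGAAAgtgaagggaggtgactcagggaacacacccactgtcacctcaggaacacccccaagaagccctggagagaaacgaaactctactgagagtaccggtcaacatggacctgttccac

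Isg15 held overlapping matches that began 78, 72 and 66 bases before its start, and Oas3 a single match 75 bases before. The element was in a promoter of 12 of the 21 list genes that could be matched (57.1%), of 3.57% of the matched genes kept, and in 3.44% of all promoters. Among the genes at least 2-fold higher the share was 8.03% (29 of 361), and among those at least 2-fold lower 5.77%. The AP-1 site TGANTCA was in a promoter of 12.7% of the higher genes, 9.62% of the lower genes and 6.18% of the genes kept, and in 7.81% of all promoters. The cAMP response element TGACGTCA was in 1.39%, 4.81%, 3.67% and 1.79%.

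Oas3, an enzyme that makes the activator of RNase L (mm9 chr5:121203107-121227668), was at 4.22 FPKM in D9T-, 32.6 in D12S- and 15.3 in D12S+. Its difference of 2.69 was the highest of the list. Dhx58, an RNA helicase that tunes RNA sensing, was at 5.52 and 24.8 FPKM (1.98), the transcription factor gene Irf7 at 25.8 and 83.5 (1.66), and Isg15, a ubiquitin-like modifier, at 64.9 and 178 (1.44). Irf7 stood at 41.3 FPKM in D12S+ and 108 in D16S-. Some classical members were low in both libraries: Ifit1 was at 2.59 FPKM in D9T- and 4.70 in D12S-, and Mx1 was below 1 in both.

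Genes of antigen presentation by MHC class I, which interferon also induces, showed 4 of 13 at least 2-fold higher, none lower, and a median of 0.80. Psmb8 and Psmb9, subunits of the immunoproteasome, were at 48.8 and 132 FPKM and at 29.2 and 68.1. Tap1, which carries peptides into the endoplasmic reticulum, was at 32.5 and 72.5 FPKM. The heavy chain gene H2-K1 was at 137 FPKM in D9T-, 339 in D12S-, 169 in D12S+ and 941 in D16S-, the highest of the 12 libraries. D12S+ gave medians of 0.23 for the interferon list and 0.26 for the MHC list.

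**Figure D2:**
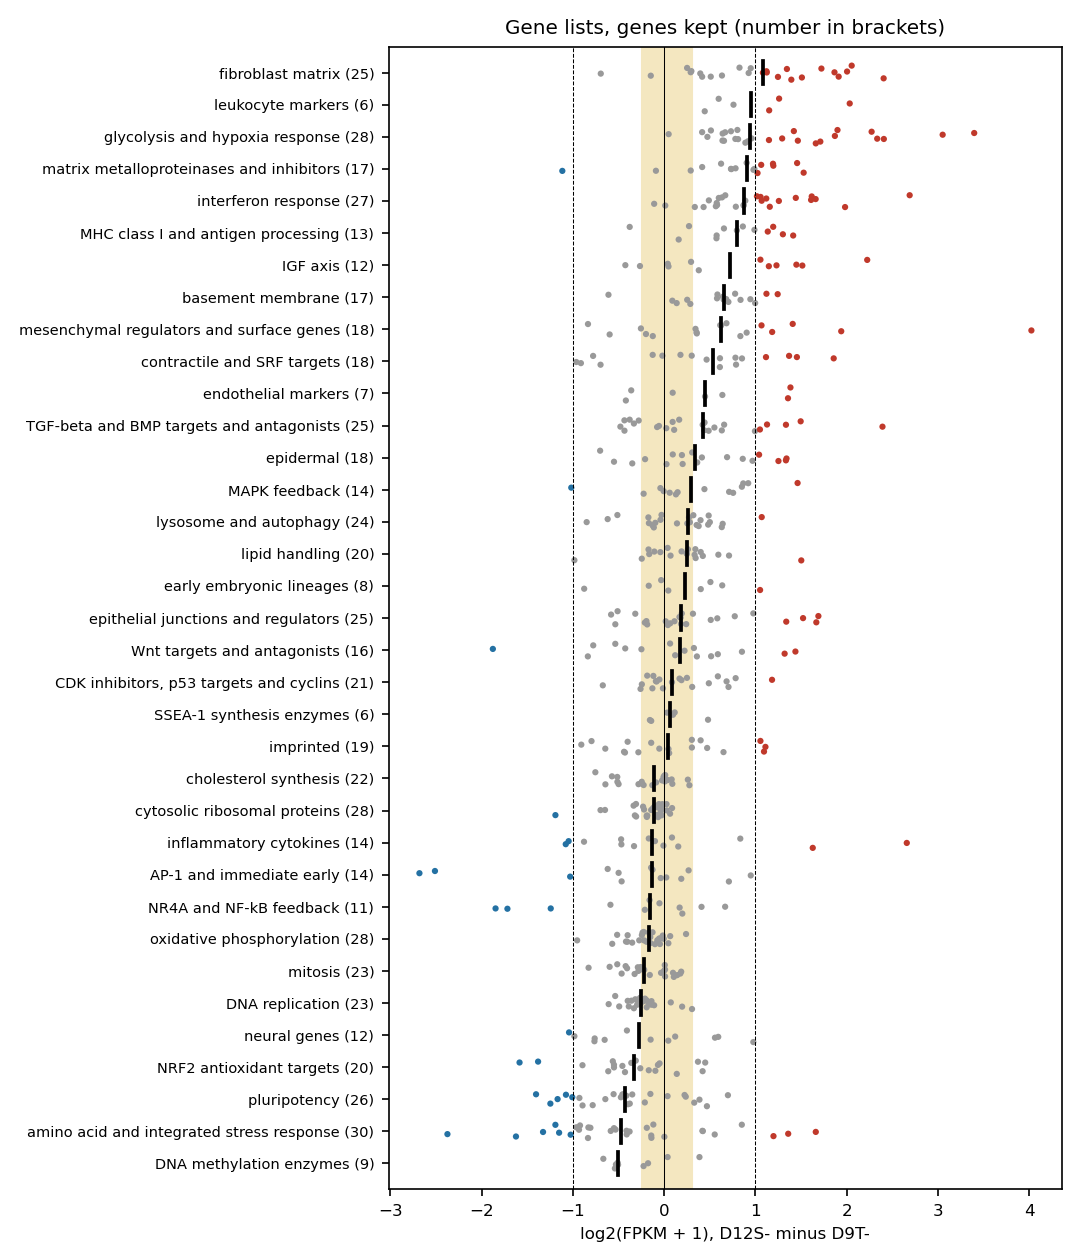
Log2 differences, D12S- minus D9T-, of the kept members of each gene list with over 4 kept members (points, 1 gene each), with the list median as a bar, the dashed lines at 2-fold and the shaded band between the quartiles of all genes kept (-0.24 to 0.30). The number of genes stands in brackets. Fibroblast matrix (median 1.08) and glycolysis and hypoxia response (0.94) lie well above the band. DNA methylation enzymes (-0.50), the stress response (-0.47) and pluripotency (-0.43) are among the lists below it. Over members with at least 5 FPKM in either library the DNA methylation median was -0.23, inside the band. The leukocyte median (0.95) rests on 6 of 17 genes and is 0 without the filter on low values.

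Cytokines were split between the directions. Of 14 kept inflammatory cytokine genes 2 were at least 2-fold higher and 2 lower, with a median of -0.13. Il11, of the interleukin 6 family, was at 1.12 FPKM in D9T- and 12.4 in D12S- (2.66), and Il33, an alarmin, at 1.65 and 7.18. The chemokine gene Ccl7 was at 218 and 105 FPKM (-1.05), and Cxcl2 at 4.31 and 1.52 (-1.08). Of the 17 leukocyte genes on the longer list 6 were kept, of which Csf1r and Itgb2 reached 1 FPKM only in D12S-, so that their direction follows from the filter. The median over all 17, without the filter, was 0. At least 2-fold higher were Cd68, a lysosomal protein of macrophages (28.0 and 68.3 FPKM), the receptor gene Csf1r (0.564 and 5.40) and Mcpt8, a basophil protease that stood at 1201 FPKM in D0 (3.64 and 9.30).

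Epithelial genes showed a gain in some members only. Keratins of simple epithelia were higher, with Krt18 at 40.8 FPKM in D9T- and 132 in D12S- (1.67), Krt7 at 12.2 and 36.9 (1.52) and Krt19 at 62.0 and 158 (1.34). The tight junction gene Cldn6 was at 6.16 and 22.1 FPKM (1.69). These were the 4 of 25 kept members past 2-fold. By any amount 18 were higher and 7 lower, the list median was 0.18 and the lowest value -0.58. Among junction and adhesion genes, chosen after their values were seen, Cldn3 was at 12.8 and 18.7 FPKM (0.51), Epcam at 55.2 and 56.8 (0.04), Cdh1 (E-cadherin) at 25.8 and 17.8 (-0.51), and Cldn4 at 49.3 and 33.7 (-0.53). In D12S+ Epcam, Cdh1 and Cldn4 were at 171, 85.8 and 123 FPKM, and the list median was 1.65. Of 18 kept epidermal genes 4 were at least 2-fold higher (median 0.33), among them Sbsn at 42.0 and 107 FPKM. Another of the 4, Ivl, reached 1 FPKM only in D12S-, so that its direction follows from the filter. Without the filter on low values the epidermal median was 0.063.

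Pluripotency genes were lower as a group. Of 26 kept members 5 were at least 2-fold lower in D12S- and none higher, 19 were lower by any amount, and the median was -0.43. Esrrb, an orphan nuclear receptor of the naive network (mm9 chr12:87702067-87862578), was at 9.61 FPKM in D9T- and 3.01 in D12S- (-1.40), and at 89.5 in D12S+. Nr0b1 (Dax1), a nuclear receptor that binds this network, was at 11.4 and 4.53 FPKM (-1.17), and at 27.1 in D12S+. Dppa5a, an RNA-binding protein of stem cells, was at 84.3 and 39.5 FPKM (-1.08), and at 1365 in D12S+. It has 3 near-identical copies in the genome, so its level is uncertain. Fbxo15 (7.52 and 2.59 FPKM) and the Ras-like Eras (8.91 and 3.93) made up the 5.

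Nanog did not pass 2-fold, at 18.5 FPKM in D9T-, 9.48 in D12S- and 78.2 in D12S+. Levels in D12S- remained above those of D6T-, where Nanog was at 0.735 FPKM and Esrrb at 0.174. The median of the list was 1.92 in D12S+, from the same D9T- library. Of 9 DNA methylation enzymes none passed 2-fold, 7 were lower, and the median was -0.50: Dnmt3b was at 4.92 and 3.07 FPKM, and Tet1 at 2.41 and 1.37, against 40.2 and 12.7 in D12S+. Dnmt3l, a cofactor of the de novo enzymes, was at 2.30 and 3.31 FPKM in D9T- and D12S-, and at 172 in D12S+.

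Genes of cell proliferation lay slightly lower. Of 23 DNA replication genes 20 were lower in D12S- and 3 higher, none by 2-fold, with a median of -0.26. Of 23 mitosis genes 15 were lower, none by 2-fold, with a median of -0.22. The mitosis median was -0.03 over members with at least 5 FPKM in either library. D12S+ gave medians of 0.64 and 0.94 for these lists. Among 21 CDK inhibitors, p53 targets and cyclins the inhibitor gene Cdkn2b passed 2-fold (9.79 and 23.5 FPKM), and the median was 0.09.

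A small set of stimulus-induced transcription factors had some of the largest differences towards lower levels in D12S-. Atf3, a stress-induced factor (mm9 chr1:192994176-193007212), was at 45.2 FPKM in D9T-, 43.4 in D9T+, 6.21 in D12S- and 6.58 in D12S+ (-2.68 in D12S-). Egr3 was at 17.6 FPKM in D9T-, 30.7 in D9T+, 2.27 in D12S- and 1.60 in D12S+ (-2.51), and Egr2 at 10.5, 22.2, 4.63 and 3.45 (-1.03). These genes were higher in both day 9 libraries than in both day 12 libraries. They were the only ones past 2-fold among the 14 genes of the AP-1 and immediate early list, whose median was -0.14. None of the 7 Fos and Jun family genes, the subunits of AP-1, passed 2-fold. They ranged from Fosb at 32.2 and 20.6 FPKM (-0.62) to Fosl1 at 22.8 and 37.9 (0.71), with Fos at 150 and 171 and Jun at 62.6 and 56.6. Ier3 had the highest difference of the list, at 119 and 231 FPKM (0.95).

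Other lists, written after values of these data were seen, held further lower genes, though most of the 148 were in no list. Of 11 NR4A and NF-kB feedback genes 3 were at least 2-fold lower and none higher (median -0.16). The nuclear receptor gene Nr4a1 was at 262 FPKM in D9T-, 748 in D9T+, 79.1 in D12S- and 55.1 in D12S+ (-1.72), and Tnfaip3, which ends NF-kB signalling, at 23.3, 34.5, 5.75 and 2.97 (-1.85). Of 30 genes of the amino acid and integrated stress response, which the factor ATF4 drives, 6 were at least 2-fold lower and 3 higher, with a median of -0.47. D12S+ gave a like median of -0.52 for this list, from the same D9T- library. Because ATF4 targets carry the element TGATGNAA, the promoter of the member with the largest difference, Chac1 (chr2:119350992-119351291, GRCm38.p6, plus strand), is shown with the match in capitals.
Chac1: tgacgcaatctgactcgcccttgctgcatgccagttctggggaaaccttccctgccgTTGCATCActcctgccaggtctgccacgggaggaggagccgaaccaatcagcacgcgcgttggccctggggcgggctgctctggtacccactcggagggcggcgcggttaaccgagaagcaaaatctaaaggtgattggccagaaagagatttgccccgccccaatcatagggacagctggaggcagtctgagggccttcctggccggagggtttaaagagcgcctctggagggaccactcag

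The match lies on the opposite strand and begins 193 bases before the start. The element was in a promoter of 9 of the 26 matched genes of this list (34.6%), of 2.56% of the matched genes kept, and in 3.97% of all promoters. Chac1, which degrades glutathione, was at 23.4 FPKM in D9T- and 3.71 in D12S- (-2.37). Mthfd2, of mitochondrial folate metabolism, was at 51.2 and 15.9 FPKM (-1.62), Slc7a5, an importer of large neutral amino acids, at 113 and 49.1 (-1.19), and Psat1, of serine synthesis, at 149 and 66.5 (-1.15). Atf4 itself was at 301 and 168 FPKM (-0.83). In D12S+ Psat1 and Atf4 were at 60.6 and 212 FPKM, also below D9T-. The 3 higher members, Ddit4 (84.7 and 219 FPKM), Nupr1 (353 and 812) and Vegfa, are stress genes too, and Vegfa and Ddit4 are known to respond to hypoxia.

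The most negative difference of a named gene was that of Hbb-y, an embryonic beta-globin (mm9 chr7:111000268-111001721). It was at 305 FPKM in D6T-, 324 in D9T-, 82.9 in D9T+, 27.1 in D12S-, 9.33 in D12S+ and 0.0996 in D0, and its difference was -3.53. It was the only globin of the 6 in the table to be kept. Prkcb, a protein kinase C, was at 51.7 FPKM in D9T- and 12.0 in D12S- (-2.02), the bHLH repressor gene Msc at 13.8 and 2.82 (-1.95), and Sfrp4, a secreted Wnt antagonist, at 17.1 and 3.94 (-1.88). Like Hbb-y, Prkcb and Msc had levels near their D9T- level or above it in D6T- (49.9 and 51.7 FPKM) and low levels in D16S- (4.41 and 1.06).

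**Figure D3:**
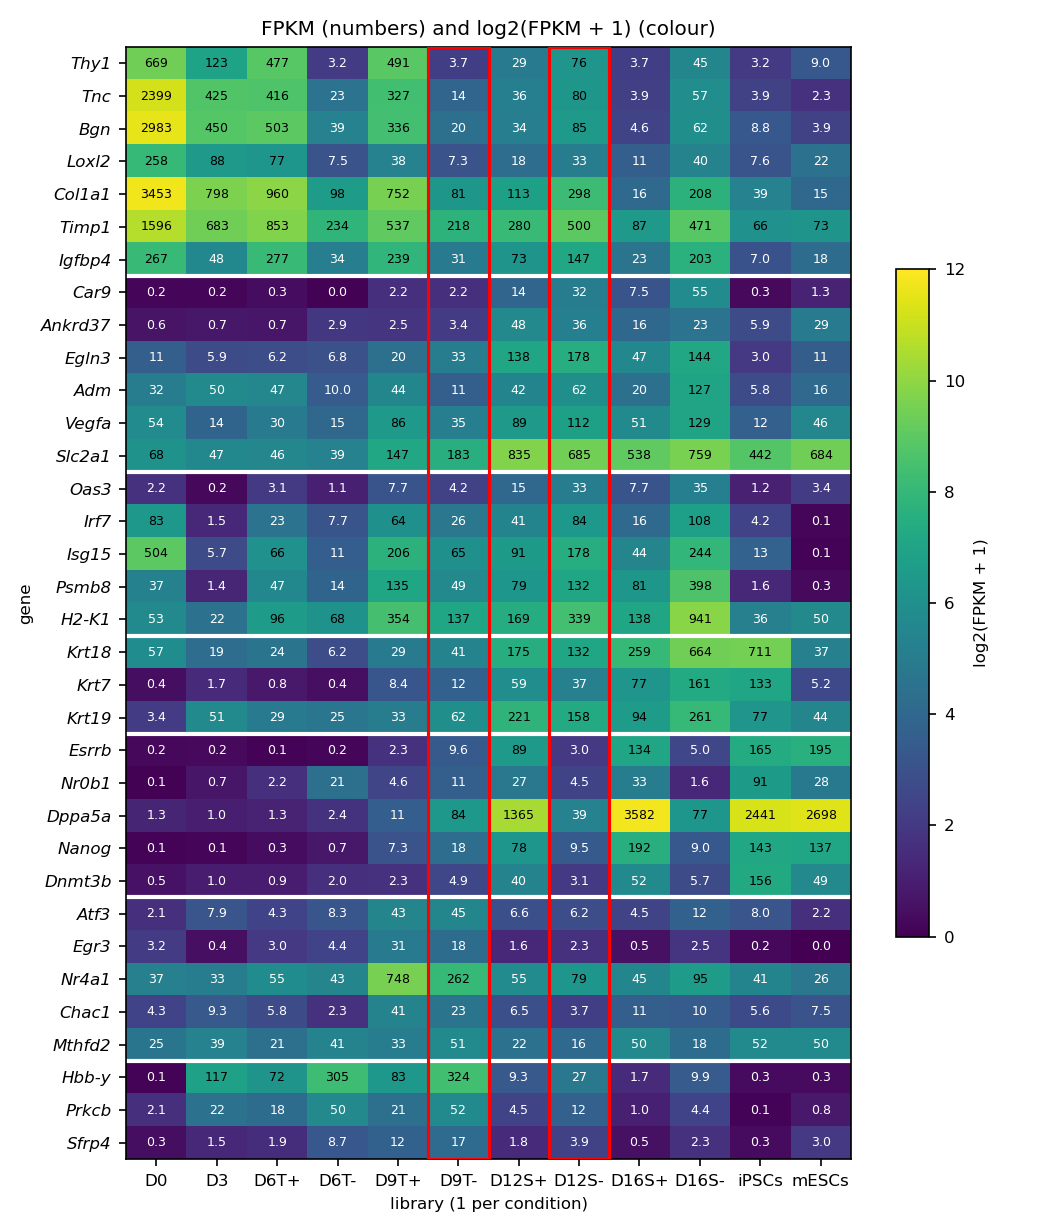
FPKM (numbers) and log2(FPKM + 1) (colour) of named genes in the 12 libraries, 1 per condition, with D9T- and D12S- framed. White lines separate, from the top, matrix and secreted genes, hypoxia genes, interferon and MHC genes, keratins, pluripotency genes, stimulus and stress genes, and Hbb-y with other lower genes.

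The genes that differed between D9T- and D12S- were then described in comparisons of libraries that neither D9T- nor D12S- enters, over the same 12116 genes. Of the 514 higher genes 57.6% were at least 2-fold higher in D6T+ than in D6T- (9.85% of all genes kept) and 1.36% lower (3.28% of all). In D16S- against D16S+, 70.8% were at least 2-fold higher (17.5% of all) and 1.36% lower (10.2% of all). Most of the higher genes were thus also higher in the day 6 cells that kept Thy-1 and in the day 16 cells without SSEA-1, at shares well above those of all genes. D9T- and D6T- were both sorted for the absence of Thy-1, and D12S- and D16S- for the absence of SSEA-1. These comparisons therefore share the sorts, and the part of the sorts in the shares was not tested. In iPSCs against D0, 57.2% were lower (22.1% of all) and 12.1% higher (17.3% of all). In D3 against D0, 40.5% were lower (8.30% of all) and 10.9% higher (6.00% of all).

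Of the 148 lower genes 31.1% were at least 2-fold lower in D6T+ than in D6T- (3.28% of all genes) and 6.08% higher (9.85% of all). In D16S- against D16S+, 39.9% were lower (10.2% of all) and 16.9% higher, the latter close to the 17.5% of all genes. In iPSCs against D0, 28.4% were higher (17.3% of all) and 12.2% lower (22.1% of all). In D3 against D0, 20.9% were higher (6.00% of all) and 6.76% lower (8.30% of all). Among the lower genes are housekeeping genes such as Psma4 and Rpl26, which were high in D9T- and higher still in D16S+. Rpl26 was at 56.6 FPKM in D6T- and 18.7 in D6T+, and Psma4 at 22.4 and 15.6. The part of such genes in these shares was not tested. The median level of the higher genes was 15.3 FPKM in D0, 14.8 in D9T+, 5.15 in D9T-, 16.0 in D12S- and 10.4 in D12S+. That of the lower genes was 1.81 FPKM in D0, 8.32 in D6T-, 13.5 in D9T-, 4.66 in D12S- and 4.23 in D12S+. The levels in D9T- and D12S- are fixed by the choice of these genes.

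**Figure D4:**
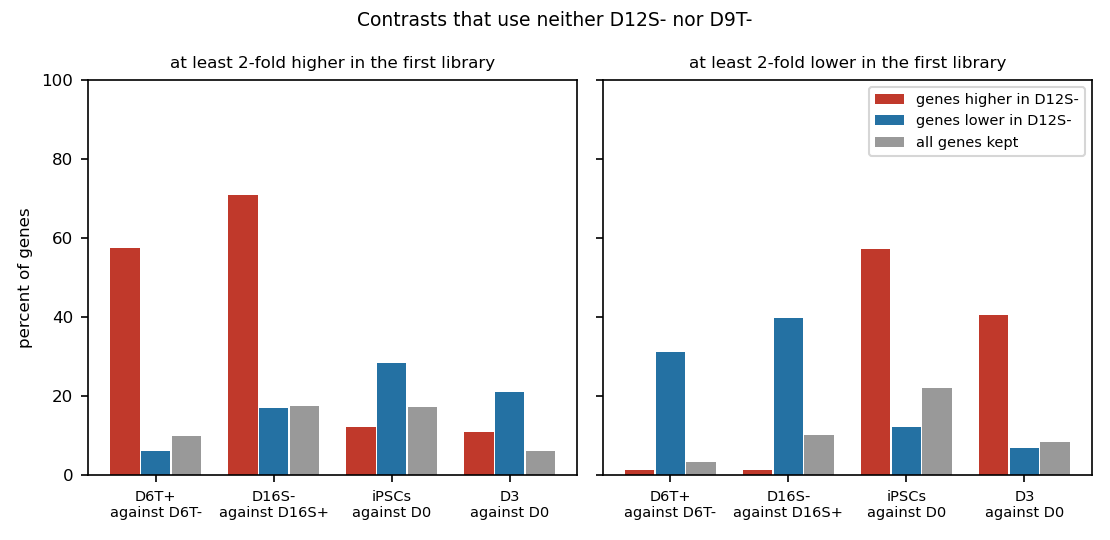
Share (%) of the 514 genes higher in D12S-, of the 148 genes lower in D12S- and of all genes kept that were at least 2-fold higher or lower in comparisons without D9T- or D12S-. In D16S- against D16S+, 70.8% of the higher genes were higher, against 17.5% of all genes kept.

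The main gene groups differed in these comparisons. The fibroblast matrix list had medians of 2.49 in D6T+ against D6T- and 2.79 in D16S- against D16S+, with 24 and 20 of 25 members at least 2-fold higher. For the interferon list the medians were 1.03 and 1.40, with 14 and 20 of 27 at least 2-fold higher. The glycolysis and hypoxia list stood apart, with medians of 0.05 and 0.41, and with 3 of 28 higher and 3 lower at day 6. The pluripotency list gave -0.45 and -3.18, and the stress response list -0.01 and -0.06. Over all genes kept the medians were -0.04 and 0.08.

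Reads that map to several loci had been removed, which leaves genes with near-identical copies uncertain. Such a copy (at least 95% identity over 50% of the coding transcript) was found for 6.87% of the kept genes examined, for 2.71% of the higher genes and for 12.3% of the lower genes. Tgtp1, an interferon-induced GTPase, was at 0.028 FPKM in D9T- and 14.7 in D12S-, while its copy Tgtp2 was at 11.7 and 4.89. Summed, the pair was at 11.7 and 19.6 FPKM, a difference of 0.69. The pair did not pass 2-fold when summed.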

How the data were processed

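Per the labels, mRNA libraries were made with a stranded Illumina TruSeq kit. The authors aligned reads to mouse genome mm9 with STAR, removed reads with more than 2 mismatches or several loci, and computed FPKM with Cuffdiff (versions not given in the sources used here). The deposited table holds 1 FPKM value per gene and library with its confidence interval, and 12 status columns that were not used. Retroviral OSKM reads count towards the endogenous genes. FPKM values were compared as log2(FPKM + 1) over genes with at least 1 FPKM in either library, and 2-fold differences were counted, with Python 3.11.15 and pandas 2.3.3. With 1 library per condition no test was run and no p-value is given. The members and gene lists were chosen with earlier results of these data known, and the lists of the amino acid and integrated stress response, of globins and of NR4A and NF-kB feedback were written after values were seen. Named genes are the 15 largest differences each way, up to 4 members past 2-fold each way in each list, Thy1, the factors and the SSEA-1 enzymes, leaving out from the largest differences loci under 500 bases, small RNA, Gm and Rik symbols. The other list members named, such as the glycolytic enzymes, the AP-1 subunits and Nanog, were chosen after their values were seen. Near-identical copies were sought with minimap2 2.31 (GENCODE M1 coding transcripts, 95% identity over 50% of length), an alternative added after seeing the data. RefSeq promoters (GRCm38.p6) matched 9148 of the 12116 genes. The counting was tested on simulated data. Some genes that met the rule for names are not reported here.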

Additional observations from a re-analysis of the deposited data

Results flagged for a closer look

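Several results had opposite signs in the SSEA-1- and the SSEA-1+ cells of day 12, each set against the same D9T- library. Both comparisons share that library, there is 1 library per condition, and the difference between them was not tested. The difference of D12S- from D9T- was -1.40 for Esrrb, -1.17 for Nr0b1 and -1.08 for Dppa5a, where D12S+ stood above D9T-. The median of the pluripotency list was -0.43 in D12S- and 1.92 in D12S+. The median of the DNA replication list was -0.26 and 0.64, and that of the DNA methylation enzymes was -0.50 and 0.55. In the other direction, the list of mesenchymal regulators and surface genes had a median of 0.62 in D12S- and -0.50 in D12S+. This list includes Thy1, whose difference describes the sort.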

How the results depend on the processing

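No paired analysis was possible because each condition has 1 library. Of 296 alternative list medians 283 moved by less than 0.25, and of 938 alternative values of named genes 890 did and none changed direction. The number of higher genes was 876 with a pseudocount of 0.1, 1509 at 1.5-fold, 46 at 4-fold and 0 where the intervals had to be apart, and that of lower genes 322, 761, 14 and 0. Most intervals are so wide that they overlap at almost any difference, so the counts of 0 do not single out any gene. Without the filter on low FPKM the medians were 0.34 for mesenchymal, 0.063 for epidermal, 0.061 for endothelial, 0.38 for IGF, 0 for leukocyte and globin genes, and 0.046 for neural genes, which reversed from -0.28. At 5 FPKM or more they were -0.23 for DNA methylation enzymes and -0.39 for Wnt genes, which turned from 0.17, and the median log2 difference of early embryonic lineages turned from 0.22 to -0.061. Without genes that have near-identical copies they were 0.58 for MAPK feedback and 1.29 for glycolysis and hypoxia, and with a pseudocount of 0.1 the leukocyte median was 1.31. The order of the highest medians changed: the fibroblast matrix median, 1.08 in the report, was below the leukocyte median at this pseudocount (1.20) and below that of glycolysis and hypoxia without copies (1.08). At 4-fold, 82.6% of the 46 higher genes were higher in D16S- than in D16S+, while of the 14 lower genes 28.6% were higher and 28.6% lower. Of the lower genes 39.1% were higher in iPSCs than in D0 with a pseudocount of 0.1 and 7.14% at 4-fold. In D3 against D0, 36.6% and 35.7% were higher. The 4-fold shares of the lower genes rest on these 14 genes. At the main settings, of all genes kept 17.5% were higher and 10.2% lower in D16S-, 17.3% higher in iPSCs and 6.00% higher in D3. Beyond these constructions the cause was not tested. The unknown depth and the width of the intervals limit every single gene.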

Other observations

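Other genes with large differences were of secreted and membrane proteins. Sema7a, a membrane-anchored semaphorin, was at 1.92 FPKM in D9T-, 18.8 in D12S- and 489 in D0. Crispld2, a secreted glycoprotein, was at 2.86, 22.7 and 57.2 FPKM, and Rarres2, which encodes the chemoattractant chemerin, at 0.382, 7.26 and 18.7. The growth factor gene Pgf was at 1.11, 11.5 and 6.69 FPKM, the water channel gene Aqp1 at 7.46, 48.3 and 10.1, and Tac1, the precursor of substance P, at 2.73, 20.7 and 4.49. Of these, Pgf, Aqp1 and Tac1 were higher in D12S- than in D0. Crabp1, which binds retinoic acid, was at 206 FPKM in D9T- and 1181 in D12S-, the chaperone gene Cryab at 322 and 1626, and Ndufa4l2, a HIF-induced mitochondrial protein, at 58.5 and 306. These last 3 were chosen after their values were seen.

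In the remaining lists few genes passed 2-fold. Of 19 imprinted genes 3 were at least 2-fold higher (median 0.05), namely H19 (142 and 307 FPKM), Igf2 (21.99 and 46.7) and Cdkn1c (11.0 and 24.7), each at a similar level in D12S+ (355, 52.2 and 25.5). Of 20 NRF2 antioxidant targets 2 were lower, Gsta3 (36.5 and 13.4) and Prdx1 (35.9 and 11.3), with 16 lower by any amount. The counts of higher and lower genes were 2 and 0 of 7 endothelial, 1 and 1 of 14 MAPK feedback, 1 and 0 of 24 lysosome, 1 and 0 of 20 lipid handling, 1 and 0 of 8 early lineage, 2 and 1 of 16 Wnt and 0 and 1 of 12 neural genes. The endothelial gene Cdh5 reached 1 FPKM only in D12S-, so that its direction follows from the filter. None of 22 cholesterol genes and 1 of 28 ribosomal protein genes, Rps4x, was past 2-fold. None of 15 methylation-silenced germline genes in the table reached 1 FPKM in either library.

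Some housekeeping genes, chosen after their values were seen, were high in D9T- and D16S+ and low in the other sorted libraries of days 9 to 16. Psma4, of the proteasome, was at 25.9 FPKM in D9T- and 49.4 in D16S+, and at 5.82 in D9T+, 5.71 in D12S-, 6.47 in D12S+ and 5.75 in D16S-. Rpl26 was at 56.0 and 249 FPKM, and at 10.5, 16.6, 14.8 and 11.8. Sec61g, of the protein translocation channel, was at 10.3 and 28.3 FPKM, and at 1.26, 1.35, 1.84 and 1.92. Rps4x was at 967 and 1408 FPKM, and at 325, 423, 397 and 336. Prdx1 was also highest in D16S+ (94.1 FPKM), but stood at 32.9 in D9T+. Rps27 went the other way, at 8.85 FPKM in D9T-, 53.9 in D12S- and 11.4 in D16S+. Psma4, Rpl26, Rps4x and Rps27 have near-identical copies in the genome, and none was found for Sec61g. The largest differences of all were in small RNA genes left out by the rule for names, such as Mir5133, listed at 0 in D9T- and at 577 FPKM in D12S-, and Mir682, at 86.6 FPKM in D9T- and listed at 0 in D12S-.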
